A study of Mus musculus with 12 samples.

Results

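The immunoglobulin heavy, kappa and lambda chain loci are described here by the MOF peaks near their constant and joining segments in visceral white adipose tissue of Mof+/+ and Mof+/- mice. The loci were chosen by a measured value, the fold enrichment of the highest peak in the Mof+/+ list, which covered Ighm, part of Ighd and Ighj1 to Ighj4. All values read from the peak lists at these loci are therefore given as a description, with no test. The members were the peaks of both lists that shared at least 1 bp with a window from 50 kb before to 50 kb after 10 listed segments, namely Ighm, Ighd, Ighj1, Ighj2, Ighj3, Ighj4, Igkc, Iglc1, Iglc2 and Iglc3. The windows held 29 of the 20469 peaks on chromosomes 1 to 19, X and Y. Of these, 28 of 19753 were Mof+/+ peaks and 1 of 716 was a Mof+/- peak. The heavy chain window held 3 Mof+/+ peaks and 1 Mof+/- peak, the kappa window held 10 and 0, and the lambda windows held 15 and 0.

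MOF, also named KAT8, is an acetyltransferase of histone H4, and the study asked where it binds in fat tissue when a single intact copy of its gene is left. The libraries came from C57BL/6 mice (strains backcrossed to C57BL/6J) at 8 weeks of age on a standard diet, with Mof+/+ mice as controls of Mof+/- mice. The labels list 12 libraries in 6 groups of 2, with ChIP of MOF, ChIP of histone H3 and input DNA for each genotype. The study's reporting summary describes the animals as littermates. Only 1 list of MOF peaks per genotype was analysed, so animals could not be compared with each other and no genotype difference was tested. The nuclei were digested with CviKI-1, an enzyme that cuts DNA at RGCY (R for a purine and Y for a pyrimidine, as in AGCT), before they were sonicated, and the density of these sites is given beside the peaks. The chromatin was taken from whole tissue, in which fewer cells of a type and less MOF bound per cell cannot be told apart.

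Antibodies consist of heavy chains and of kappa or lambda light chains, which B cells and plasma cells make. In each locus, a variable segment, at the heavy chain locus also a diversity segment, is joined to a J segment during B cell development, and the exon formed in this way is spliced to a constant (C) gene. Most B cells first use Ighm (IgM) and Ighd (IgD). They can later replace Ighm by another constant gene through class switch recombination, which cuts at switch regions, long tandem repeats on the 5′ side of the heavy chain constant genes other than Ighd. The switch region of Ighm is known for its many copies of the pentamers GAGCT and GGGGT. Enhancers lie between the J segments and the first constant gene of the heavy and kappa loci and on the 3′ side of the constant genes.

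The highest Mof+/+ peak and the only Mof+/- peak had their summits in the tandem repeat of the switch region of Ighm. The 300 bases around both summits (chr12:113424784-113425083, minus strand, the strand of Ighm) are shown because the heavy chain results turn on them, with each AGCT, a site that CviKI-1 can cut, in capitals. The Mof+/- summit is base 72 and the Mof+/+ summit base 229, counted from 1 at the 5′ end. For comparison, the 300 bases richest in AGCT within 5 kb on the 5′ side of Ighg3 (chr12:113363584-113363883, minus strand), in which neither list had a peak, follow in the same style. Ighg3 was taken because its switch region is the only other within the heavy chain window, and those of Igha and Ighe, farther away, are richer in RGCY sites.
Ighm switch region: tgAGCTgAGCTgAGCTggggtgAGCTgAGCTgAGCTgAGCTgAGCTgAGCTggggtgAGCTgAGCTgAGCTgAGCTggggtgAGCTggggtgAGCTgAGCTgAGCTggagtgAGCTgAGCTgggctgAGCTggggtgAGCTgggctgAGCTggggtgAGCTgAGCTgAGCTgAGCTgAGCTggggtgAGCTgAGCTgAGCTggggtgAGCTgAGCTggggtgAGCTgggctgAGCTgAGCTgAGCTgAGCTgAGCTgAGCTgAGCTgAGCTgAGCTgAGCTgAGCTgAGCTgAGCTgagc
5′ side of Ighg3: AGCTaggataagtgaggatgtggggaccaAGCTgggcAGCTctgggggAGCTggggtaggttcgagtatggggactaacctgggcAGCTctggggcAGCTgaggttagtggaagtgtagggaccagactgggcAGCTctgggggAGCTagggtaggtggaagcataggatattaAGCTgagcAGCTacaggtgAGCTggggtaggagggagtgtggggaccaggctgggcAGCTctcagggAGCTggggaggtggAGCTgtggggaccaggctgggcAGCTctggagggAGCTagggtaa

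The sequence at the Ighm summits held 46 copies of AGCT and 49 RGCY sites in 300 bases, against 16 and 18 in the Ighg3 sequence. Every base of it was soft-masked, that is, marked as a repeat in the RefSeq assembly, and 93.8% of its 12-mers occurred in it more than once, against 22.1% in the Ighg3 sequence. GAGCT occurred 46 times on the printed strand and GGGGT 9 times, against 6 and 2.

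The heavy chain locus carried a single very wide and high Mof+/+ peak. It spanned 19198 bp (chr12:113410695-113429892, GRCm38), from the 5′ side of Ighj1, the first J segment, through Ighm into Ighd. Its summit held 134 fragments (exact Poisson 95% interval 112 to 159, counting error only) over an input background of 4.87 fragments, a fold enrichment of 23.0. The peak ranked 1 of 19753 in fold enrichment, the value used to choose the loci, and also 1 in width. The next fold enrichment in the list was 14.9, and the median was 3.40, with a median width of 609 bp. The −log10 p at the summit was 139.7. The summit lay 2.125 kb on the 5′ side of Ighm and 3.659 kb on the 3′ side of Ighj4, 67 bp from Gm24022, an annotated miRNA gene. Gm25747 and Gm22175, annotated miRNA genes too, were also covered, and no gene was annotated at the summit itself.

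The only Mof+/- peak of the loci lay inside this wide peak. It was 415 bp wide (chr12:113424750-113425164), all of it shared with the Mof+/+ peak, and its summit was 157 bp from the Mof+/+ summit and 2.282 kb from Ighm. The Mof+/- summit held 12 fragments (6.20 to 20.96) over a background of 2.26, a fold enrichment of 3.99, which ranked 425 of 716. The numbers of fragments in the lists depend on library depth, which the lists do not give, and the lowest background was 3.52 for Mof+/+ but 2.26 for Mof+/-. Both summits thus lay in the same stretch between the J segments and Ighm. The Mof+/- value was under the median of its list, 4.29. At the same background, the smallest summit of the Mof+/- list held 11 fragments, so this peak was near the lower limit of what was listed.

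Over the whole 19198 bp, the Mof+/+ peak held 582 RGCY sites, or 30.3 per kb, higher than 86.0% of Mof+/+ peaks (median 21.2, quartiles 15.7 and 26.9). The sites were unevenly spread within the peak. The 1000 bp on either side of the summit made up 10.4% of its width and held 238 sites, 40.9% of all. There the density was 119 per kb, the highest of all 19753 summits, of which the next reached 52.5 and the median was 22.0. Beyond 1000 bp from the summit the peak held 20.0 sites per kb, close to the median of the list. GAGCT, counted on both strands, reached 89.955 per kb within 1000 bp of the summit, against 15.5 at the next summit and a median of 2.50, and GGGGT reached 24.0 against a median of 2.50. These pentamers are short, and 99.1% of all Mof+/+ summits had GAGCT and 97.6% had GGGGT at least once in this window. GAGCT holds the CviKI-1 site AGCT, so both counts rise together.

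**Figure D1:**
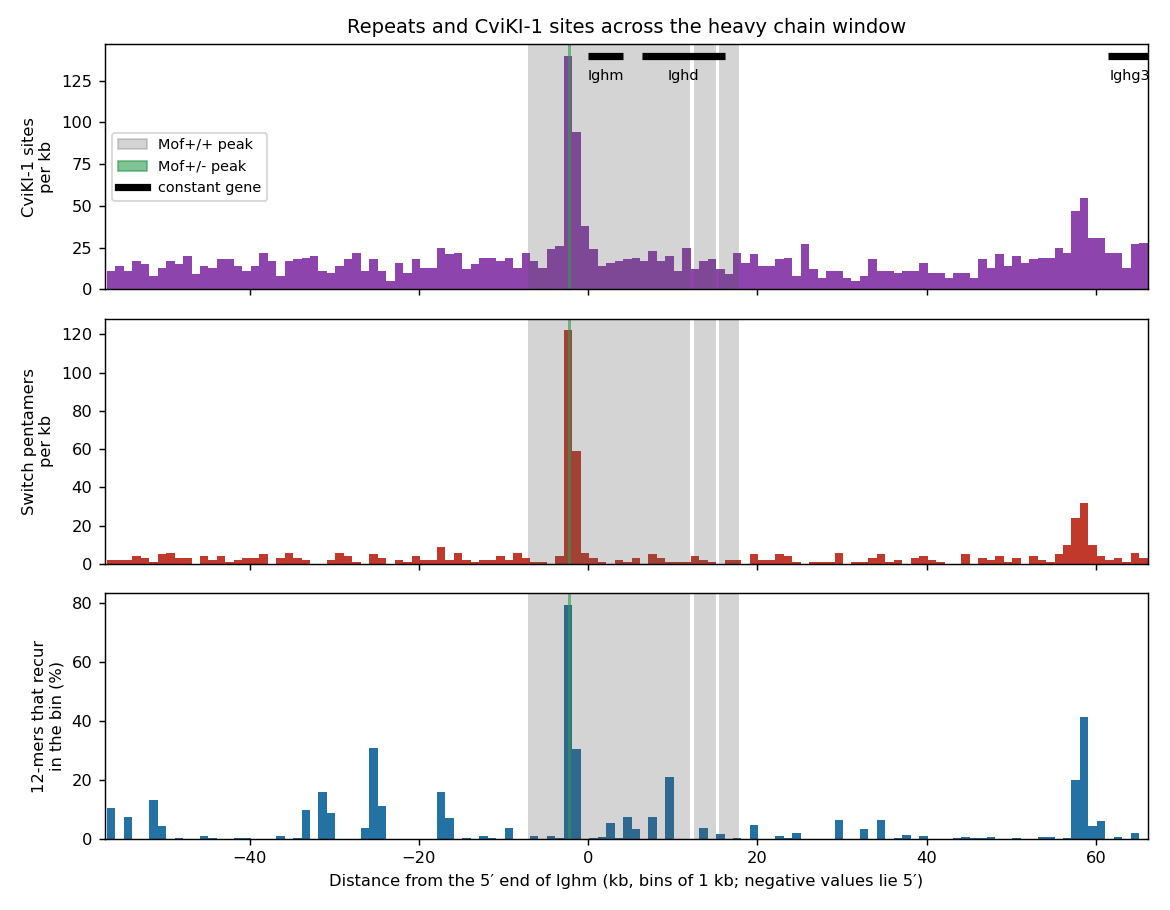
Sequence of the heavy chain window in bins of 1 kb, as CviKI-1 (RGCY) sites per kb, switch pentamers (GAGCT, both strands) per kb and the percentage of 12-mers that recur in the bin, against distance from the 5′ end of Ighm in kb, with peaks as shaded bands. The densest bin, with 140 CviKI-1 sites and 122 pentamers, lies at the Mof+/- peak inside the wide Mof+/+ peak, and the second rise, with 55 and 32, lies next to Ighg3 without a peak.

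In the heavy chain window, RGCY sites were denser inside the Mof+/+ peaks, with 27.1 per kb, than outside them, with 16.2. Of its 123 bins of 1 kb, the densest 2, with 140 and 94 sites, lay under the wide peak. The next 2 bins, with 55 and 47 sites, lay on the 5′ side of Ighg3 and were free of peaks in both lists. The 25 bins that were at least 50% covered by Mof+/+ peaks had a median of 18.0 sites, against 15 in the other bins. The soft-masked share ran the other way, with a median of 8.90% in the covered bins and 23.1% in the others.

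The input background at the Ighm summit was low for a summit in such a repeat. At 18 of the 19753 Mof+/+ summits, more than 50% of the 12-mers within 1000 bp occurred there more than once. At the Ighm summit this share was 57.4%. At the other 17 the median input background was 118 times the lowest of the list, and the highest fold enrichment was 2.59, a comparison that the choice of the highest peak fixed. The background at the Ighm summit was 1.38 times the lowest. In the Mof+/- list, the share at the Ighm summit was 56.8% with the background at the lowest level, and at the other 15 such summits the highest fold enrichment was 3.26 and the median background was 134 times the lowest. How uniquely reads map inside the repeat, and how digestion at its many RGCY sites acted on MOF ChIP and input DNA, was not tested.

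**Figure D2:**
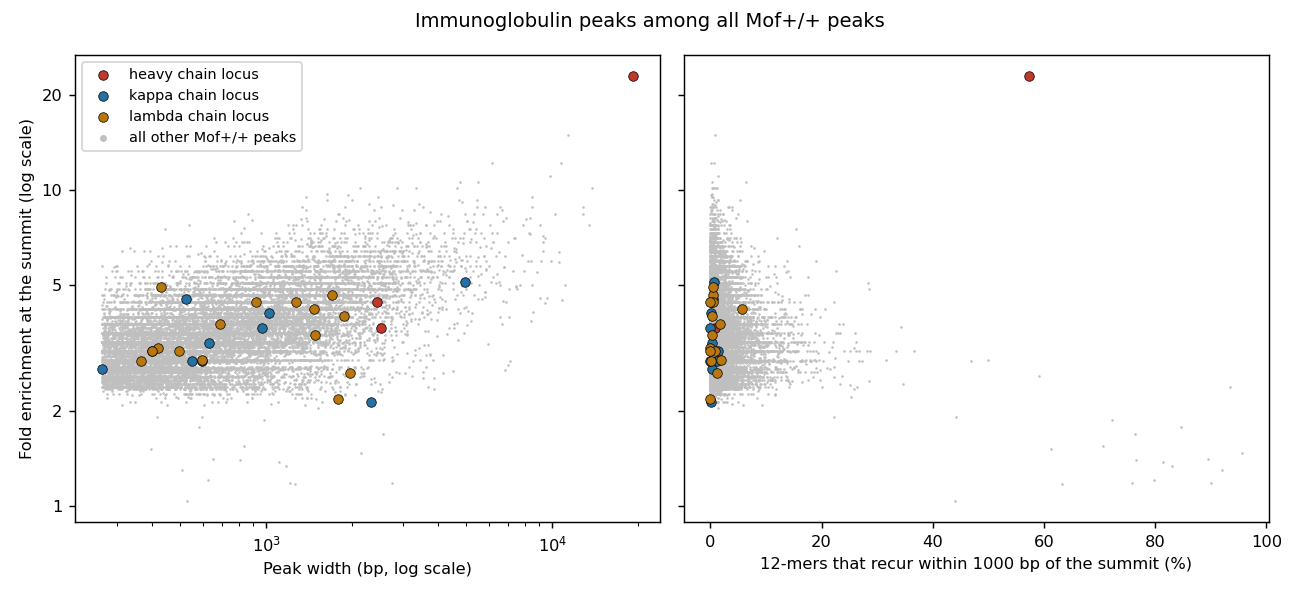
Fold enrichment at the summit (log scale) of all 19753 Mof+/+ peaks against peak width in bp (log scale, left) and against the percentage of 12-mers that recur within 1000 bp of the summit (right), with the 28 immunoglobulin peaks coloured by locus. The wide heavy chain peak stands apart at a fold enrichment of 23.0, while the other 27 lie at 5.11 or below, within the range of the list, and at no more than 5.63% recurring 12-mers.

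Ighd, the gene of the IgD constant region, was overlapped by all 3 Mof+/+ peaks of the window, which covered 90.9% of its 9721 bp. Besides the wide peak, which reached into its 5′ part, a peak of 2525 bp (chr12:113407669-113410193) had its summit in an Ighd intron with 21 fragments (13.0 to 32.1) and a fold enrichment of 3.67. A peak of 2441 bp (chr12:113404846-113407286) had its summit 1.172 kb on the 3′ side of Ighd, with 19 fragments (11.4 to 29.7) and a fold enrichment of 4.42. Neither was rich in RGCY sites, with 15.4 and 13.1 per kb. The gaps between the 3 peaks were 382 and 501 bp, and joining peaks at most 1000 bp apart gave a single stretch of 25047 bp from the 3′ side of Ighd to the 5′ side of Ighj1. Ighm was covered over 100% of its 4173 bp, and so were Ighj1, Ighj2, Ighj3 and Ighj4, which are 48 to 100 bp long.

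The other heavy chain constant genes lie on the 3′ side of Ighd and encode the constant regions of IgG (Ighg3, Ighg1, Ighg2b, Ighg2c), IgE (Ighe) and IgA (Igha). Of these 6 genes, only Igha was overlapped by a Mof+/+ peak, with a fold enrichment of 3.32, and none by a Mof+/- peak. With 20.7% of all annotated genes overlapped by a Mof+/+ peak and 0.855% by a Mof+/- peak, these counts in 6 genes were near the background. No peak of either list lay in the 5 kb on the 5′ side of any of the 6, where their switch regions are. The 5 kb on the 5′ side of Igha held 66.0 RGCY sites per kb and those of Ighe 53.4, against 64.2 for Ighm, and the 4 Ighg genes had 24.2 to 38.0. Of GAGCT, Ighm had 38.4 per kb, Igha 21.8, Ighg3 16.2 and Ighe 16. The share of 12-mers that recurred within the 5 kb was 53.9% at Ighg2b, 25.8% at Igha, 23.6% at Ighm and 21.7% at Ighg3, and it ran from 11.6% to 15.9% at Ighe, Ighg2c and Ighg1. These are means over 5 kb, while within 1000 bp of the Ighm summit the density was 119 RGCY sites per kb.

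**Figure D3:**
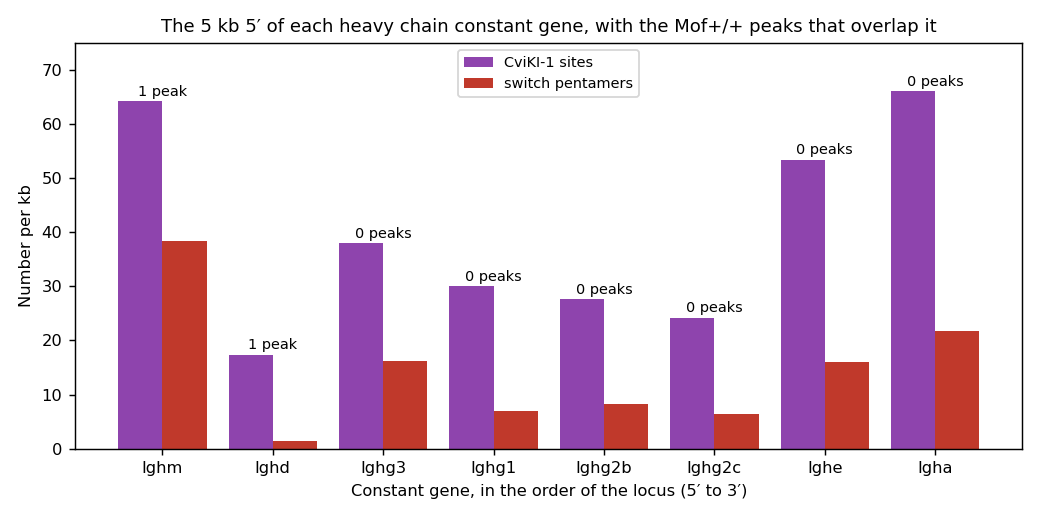
CviKI-1 (RGCY) sites per kb and switch pentamers (GAGCT, both strands) per kb in the 5 kb on the 5′ side of each of the 8 heavy chain constant genes, with the number of Mof+/+ peaks that overlap this stretch above the bars. The Ighm stretch, with 64.2 sites per kb, has 1 peak, which is also the 1 at Ighd, and the Igha stretch, with 66.0, has 0.

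Along the rest of the heavy chain locus, which spans 2755 kb from the 3′ end of Igha through the variable segments, 2 further Mof+/+ peaks lay outside the window and no further Mof+/- peak did. The nearest on the 3′ side was the peak in Igha, 149 kb from Ighd, and the nearest on the 5′ side lay at the variable segment Ighv8-6, 1736 kb from Ighj1, with a fold enrichment of 2.89.

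**Figure D4:**
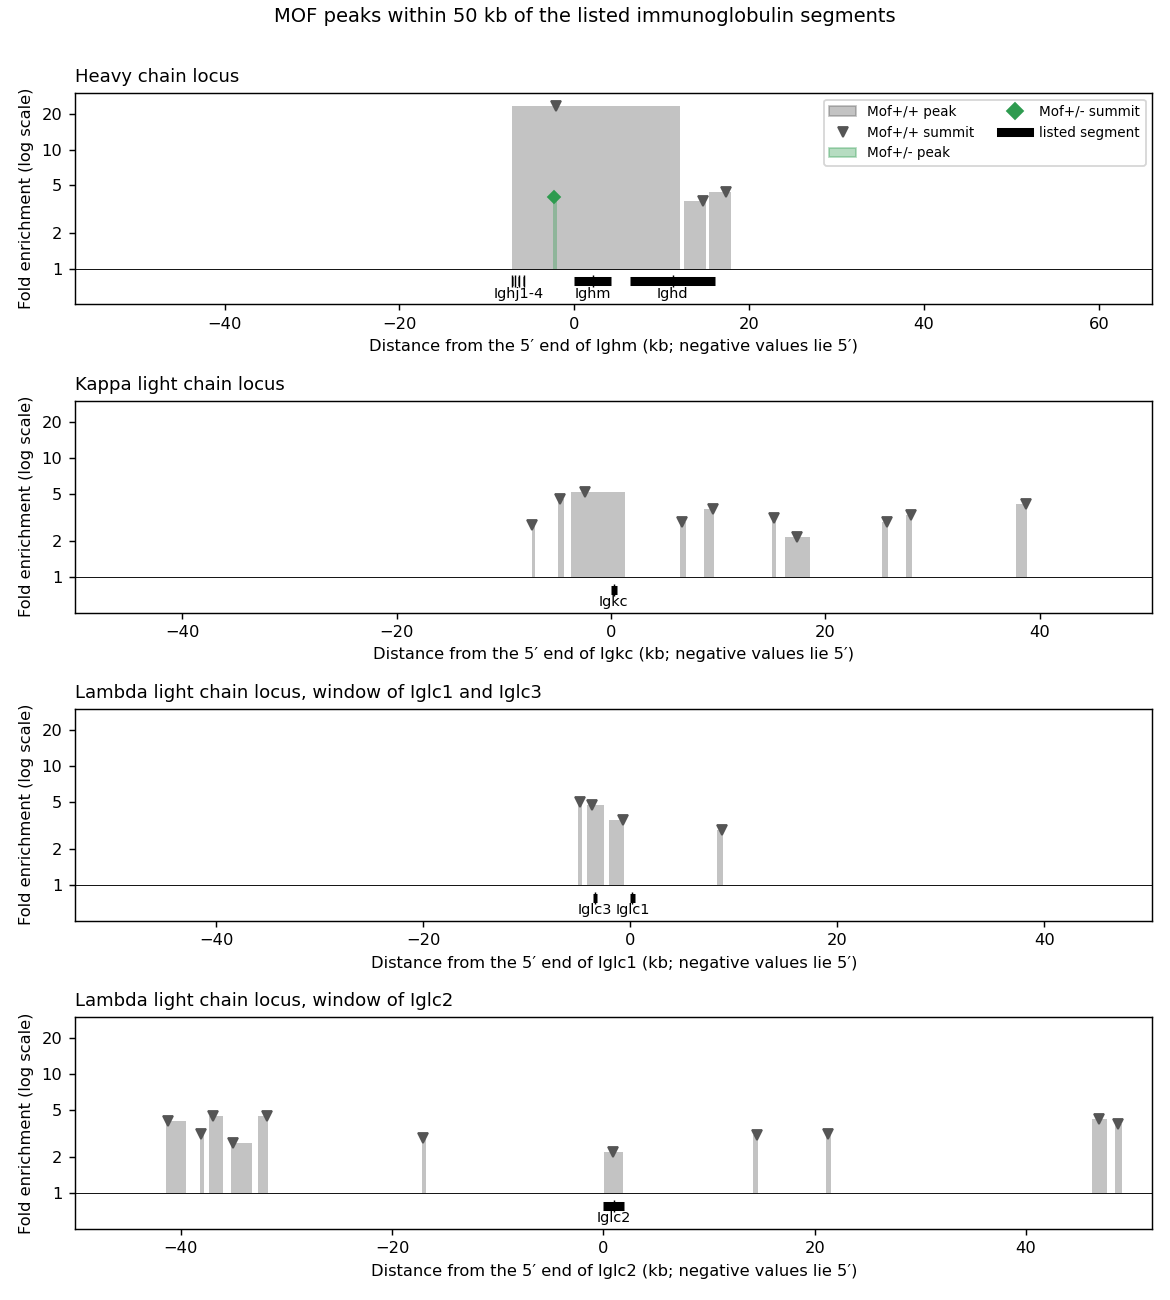
Peaks within 50 kb of the listed segments, by locus, as fold enrichment at the summit (log scale) against distance from the 5′ end of a constant gene in kb. The width of each shaded box is the width of the peak, triangles and the diamond mark summits, and black bars and ticks mark the listed segments. The heavy chain panel holds the 1 Mof+/- peak, and the Mof+/+ peaks of the kappa and lambda panels reach at most 5.11 and 4.95.

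At the kappa locus, the median fold enrichment of the Mof+/+ peaks was 3.19, near the 3.40 of the whole list. The 10 peaks had fold enrichments from 2.14 to 5.11 and widths from 267 to 4960 bp, and they covered 12.2% of the window. The highest and widest (chr6:70722751-70727710, 4960 bp) covered Igkj2 to Igkj5, all of Igkc, which encodes the kappa constant region, and the intron between them, but not Igkj1. Its summit held 29 fragments (19.4 to 41.6) over a background of 4.87 and ranked 1597 in fold enrichment and 133 in width. The summit lay 45 bp on the 3′ side of Igkj5, the last J segment, and 2.463 kb on the 5′ side of Igkc. As at the heavy chain locus, it was thus in the stretch between the J segments and the constant gene.

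At the lambda locus, the highest peak was short (chr16:19066696-19067125, 430 bp). Its summit held 25 fragments (16.2 to 36.9) over a background of 4.26, a fold enrichment of 4.95, and lay 105 bp on the 3′ side of Iglj3, the J segment of Iglc3, and 1.255 kb on the 5′ side of Iglc3. The sequences of both light chain summits are shown to set them beside the repeat of the heavy chain. Each has 200 bases with the J segment in capitals and the summit at base 151 from the 5′ end, from chr6:70723822-70724021 (plus strand) and chr16:19066887-19067086 (minus strand).
Igkj5 and kappa summit: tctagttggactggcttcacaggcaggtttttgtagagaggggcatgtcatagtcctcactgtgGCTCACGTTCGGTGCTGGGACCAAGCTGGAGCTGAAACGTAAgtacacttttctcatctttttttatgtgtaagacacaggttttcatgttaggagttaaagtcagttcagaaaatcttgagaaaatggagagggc
Iglj3 and lambda summit: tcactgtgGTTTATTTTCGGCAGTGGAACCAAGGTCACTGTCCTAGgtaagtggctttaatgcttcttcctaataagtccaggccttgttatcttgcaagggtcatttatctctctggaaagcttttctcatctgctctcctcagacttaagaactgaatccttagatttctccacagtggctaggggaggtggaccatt

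Neither stretch is a tandem repeat. Both held 4 RGCY sites and no 12-mer that occurred more than once, against 49 sites and 93.8% at the heavy chain summits. GAGCT occurred once in the kappa stretch, inside Igkj5, and was missing from the lambda stretch.

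The remaining kappa peaks lay on both sides of the widest peak. On the 5′ side, a peak of 525 bp had its summit 884 bp before Igkj1, with 20 fragments (12.2 to 30.9) and a fold enrichment of 4.54, and a peak of 267 bp lay at the start of Gm30211, a lincRNA gene that runs through the locus, with 15 fragments and a fold enrichment of 2.73. No peak was listed farther on the 5′ side within the window. On the 3′ side of Igkc, 7 peaks had summits 6.112, 9.008, 14.645, 16.854, 25.276, 27.455 and 38.216 kb from the gene. The highest of these, at 38.216 kb (22 fragments, fold enrichment 4.09), lay 8.51 kb from the start of Rpia, which encodes an enzyme of the pentose phosphate pathway. The second, at 9.008 kb (18 fragments, fold enrichment 3.67), lay in an intron of Gm30211. The peak at 16.854 kb had the lowest fold enrichment of all the members, 2.14, with 22 fragments over a background of 9.74, which was 2.77 times the lowest. The peak at 6.112 kb, of 550 bp, consisted only of soft-masked sequence, yet its 12-mers did not recur.

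At the lambda locus, 4 of the 15 Mof+/+ peaks lay at J and C segments and 11 lay 8.417 kb or more from any of them. Iglc3 was covered entirely by a peak of 1694 bp (chr16:19064584-19066277) with its summit 75 bp on the 5′ side of the gene, 20 fragments (12.2 to 30.9) and a fold enrichment of 4.65. Iglc1 was the only listed segment that no peak overlapped. A peak of 1486 bp (chr16:19062642-19064127) lay 571 bp on its 5′ side, over Iglj1, with 17 fragments (9.90 to 27.2) and a fold enrichment of 3.48. With the peak at Iglj3, these formed a group of 3 with gaps of 418 and 456 bp, 4484 bp long when joined. Iglc2, in a separate window, was covered over 91.1% of its length by a peak with its summit inside the gene, which also covered Iglj2. That peak had 21 fragments (13.0 to 32.1) over a background of 9.04, 2.57 times the lowest, and the lowest fold enrichment at this locus, 2.19. The summits beside Iglc1 and Iglc3 also lay in introns of 2010309G21Rik, which is annotated across both genes.

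The 11 lambda peaks away from J and C segments had fold enrichments from 2.64 to 4.42 and widths from 366 to 1970 bp. On the 5′ side of Iglc2, 5 peaks lay 31.839 to 41.202 kb away. The highest 2, both at 4.42 with 19 fragments (11.4 to 29.7), were 922 bp wide over Gm43388, a lincRNA gene, and Gm42870, and 1268 bp wide over the start of Gm43388. The farthest overlapped Iglv3, one of the few lambda variable segments, with its summit 137 bp from the start of the segment and a fold enrichment of 3.98. A further peak in a Gm43388 intron was 17.063 kb away, with a fold enrichment of 2.88. On the 3′ side of Iglc2, 4 peaks lay outside any gene, 9.153, 15.907, 41.521 and 43.38 kb beyond Iglc4, a constant gene without a peak, and their fold enrichments ran from 3.09 to 4.20. The start nearest to these summits was that of Iglc4 or of Gm18748, a pseudogene. The last of the 11 lay 8.417 kb on the 3′ side of Iglc1, in 2010309G21Rik, with a fold enrichment of 2.90.

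**Figure D5:**
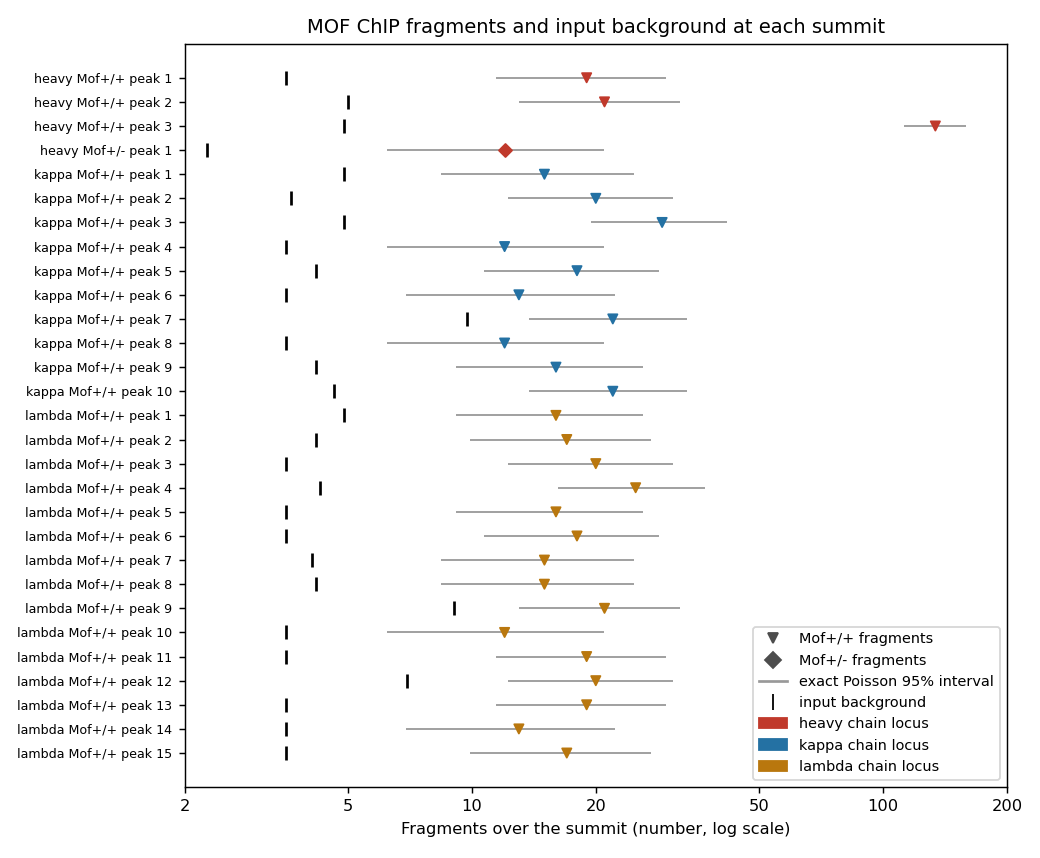
Fragments over the summit (log scale) for the 29 member peaks, numbered by position within each locus and list, with exact Poisson 95% intervals and the input background as a vertical tick. The heavy chain peak at Ighm, at 134 fragments, lies beyond the intervals of all others, which have 12 to 29 fragments with overlapping intervals.

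The light chain peaks spanned a narrow range of fragment numbers, and their differences were not tested. Over the 25 kappa and lambda peaks the number of fragments ran from 12 to 29, and the interval of the highest, 19.4 to 41.6, overlapped that of the lowest, 6.20 to 20.96, while the background ran from 3.52 to 9.74. Peaks near J and C segments were somewhat higher, with a median fold enrichment of 4.54 for the 3 kappa peaks and 4.06 for the 4 lambda peaks within 5 kb, against 3.10 for the 7 and 3.15 for the 11 beyond. These are small groups of peaks with wide intervals, and the difference was not tested. Of all 28 Mof+/+ members, 15 had a fold enrichment above the median of the list and 17 were wider than its median. Besides the Ighm peak, 8 were wider than 90% of the list, among them the peak over Igkc (99.3%) and both Ighd peaks (96.2% and 95.8%).

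In sequence, the members other than the Ighm peak had few CviKI-1 sites. Of the 28 Mof+/+ peaks, 26 had an RGCY density under the median of the list, and the highest of the 27 others was 23.7 per kb. The light chain windows were low in these sites as a whole, with 15.8 per kb inside and 14.5 outside the Mof+/+ peaks at the kappa locus and 13.1 and 12.2 at the lambda locus. Within 1000 bp of their summits, these 27 had 8.50 to 20.5 sites per kb, all under the median of 22.0. All 28 peaks were also under the list's median of 24.5 CpG sites per kb, with 23.8 as the highest. Peaks at annotated starts were fewer than in the list, since 11 of 28 (39.3%) lay within 1000 bp of an annotated transcript start, against 55.8% of all Mof+/+ peaks. These starts include the 5′ ends of J and C segments, such as Igkj5 and Iglc3, where transcription need not begin. The 39.3% is therefore not a share of peaks at promoters. The peaks were less often soft-masked than the sequence around them, with 14.3% inside and 37.8% outside peaks in the heavy chain window, 15.4% and 41.9% in the kappa window and 21.2% and 51.7% in the lambda windows.

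Of the 10 listed segments, 9 were overlapped by a Mof+/+ peak. Over all 55413 annotated genes this share was 20.7%, and among genes no longer than Ighd it was 10.5%. Since 6 of the 9 segments lie under a single peak that chose the loci, the count is a description of 4 places, of which the peaks at Igkc, Iglc3 and Iglc2 are the other 3. None of the 10 was overlapped by a Mof+/- peak, for which the shares were 0.855% and 0.593%. The nearest Mof+/- peak to Ighm was the one in its switch region, 2.02 kb away, that to Igkc was 228 kb away and that to Iglc2 3223 kb.

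Of the 28 Mof+/+ peaks, 1 overlapped a Mof+/- peak, while 2.44% of all Mof+/+ peaks did. At the lowest background of the Mof+/- list, the smallest summit listed held 11 fragments, a fold enrichment of 3.68. Of the Mof+/+ members, 12 reached this fold enrichment and 16 did not. For the other 27, the absence of a Mof+/- peak says only that none was listed at this depth and does not show that MOF binding was absent.

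The remaining receptor segments were counted in the same way in the Mof+/+ list. Of 14 immunoglobulin J segments, 11 were overlapped by a peak (78.6%), as were 6 of 14 constant genes (42.9%), counting a pseudogene. These counts include the members, and the share over all annotated genes was 20.7%, or 10.5% for genes no longer than 9721 bp. Of 22 diversity segments 0 were overlapped, and of 376 variable segments and their pseudogenes 4 were (1.06%), namely Ighv8-6, Igkv4-53, Igkv4-51 and Iglv3. At the T cell receptor loci, whose segments T cells join in the same manner, 24 of 80 J segments (30.0%) and 3 of 8 constant genes were overlapped, as were 1 of 4 diversity segments (25.0%, Trbd2) and 1 of 178 variable segments (0.562%, Trbv31). The constant genes were Trac, with a fold enrichment of 5.80, Trbc2 with 3.76 and Trbc1 with 3.10. No segment of either receptor was overlapped by a Mof+/- peak. Neighbouring J segments often share a peak, so these counts are of segments and not of separate peaks.

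Genes that assemble, signal through or secrete immunoglobulin were then inspected. Of 13, 6 had a Mof+/+ peak within 1000 bp and 0 had a Mof+/- peak. The shares over all annotated genes were 23.1% and 1.10%. Over protein-coding genes, counted only within 1000 bp of a start site, they were 41.0% and 1.32%. The count of 6 of 13 was thus near the protein-coding share. The highest peaks were at Cd79a (fold enrichment 7.52, 33 fragments) and Cd79b (7.30, 32 fragments), which encode the signalling partners of membrane immunoglobulin. Vpreb1, part of the surrogate light chain of B cell precursors, had 4.65, Mzb1, an endoplasmic reticulum cofactor of antibody secretion, had 3.95, Ung, a uracil-DNA glycosylase that acts in class switching, had 3.54 and Dntt, which adds nucleotides at segment joints, had 2.65. Among the genes without a listed peak were Rag1 and Rag2, the recombinase of segment joining, Jchain, which links IgM and IgA into polymers, and Vpreb2, Vpreb3 and Igll1.

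Markers of the cell types that adipose tissue can hold were counted beside these results. A Mof+/+ peak lay within 1000 bp of a start site of 7 of 8 B cell genes, among them Ms4a1, Cd79a, Cd79b and Pax5, 6 of 8 T cell genes, 4 of 8 adipocyte genes, 1 of 8 macrophage genes and 1 of 8 endothelial genes. Over all protein-coding genes the share was 41.0%. In the Mof+/- list the counts were 1, 0, 0, 0 and 0, with a share of 1.32% over all protein-coding genes. Adipoq and Plin1 were among the adipocyte genes with a peak, and Cidec, Fabp4, Lep and Pparg had none. How far B cells in the tissue contributed to the peaks at the immunoglobulin loci was not tested.

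At the edges of the windows, the nearest lambda peak left out lay 50.7 kb from Iglc1, with a fold enrichment of 2.88, and the farthest lambda peak kept lay 46.5 kb from Iglc2, with a fold enrichment of 3.76. At the kappa locus the nearest peak left out lay 63.7 kb on the 3′ side of Igkc (fold enrichment 3.76) and the farthest kept lay 37.3 kb from it.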

How the data were processed

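MOF ChIP-seq of visceral white adipose tissue was analysed from 2 deposited peak lists, 1 per genotype. The authors mapped reads to GRCm38 (mm10) and called peaks with MACS2 2.1.1.20160309.3 against input DNA with a q-value limit of 0.1. The authors describe joining peaks with BEDtools merge at a distance of 1000 bp, without naming replicates. For each peak the deposited fold enrichment is a ratio of fragments at the summit to local background, and the authors' caller also gave the −log10 p-value and, as a deposited score, the −log10 q-value. The genotype of each list was read from its name. A further deposited column holds the summit position, and 1 value column per list, the q-value column rescaled, was not used. The deposited lists still held peaks at most 1000 bp apart, so they stand before that step, and they were used without merging. Whether the 2 replicates were pooled before peak calling is not given in the sources used here. H3 libraries and signal tracks were not analysed here.

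From these values, whole fragments and background at each summit were solved (MACS2 adds 1 to both). For 100% of peaks the solution matched the p-value within 0.01, and the solver was tested on simulated data. Segments came from GENCODE M21 and sequence from RefSeq GRCm38.p6. Motifs were counted on both strands, overlaps included. Analyses used python 3.11.15, numpy 2.4.6, scipy 1.17.1, pandas 2.3.3 and matplotlib 3.10.9. Named genes were the listed segments, genes overlapped by or nearest to a member peak, constant genes with a peak and a fixed list of immunoglobulin assembly genes (some genes of the lists are counted but not reported here by name), while V and D segments and cell type markers were named after their values were seen. Members and lists were chosen with earlier results of these data known. Alternatives were other q-values, windows, overlaps and merging. Intervals cover counting error only. The labels and the study's reporting summary give 2 animals per genotype, and the design text gives more Mof+/- animals.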

Additional observations from a re-analysis of the deposited data

How the results depend on the processing

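No paired analysis was possible because the lists carry 1 value per peak and genotype and no replicate number, and for the same reason no replicate could be left out. Of 51 alternative values, 37 stayed within 1.5 times a count or within the interval of a share and 14 did not. Mof+/- counts of 0 could not rise with a stricter q-value or a smaller window, so those values were bound to stay. With the q-value limit at 0.01, the kappa locus kept 6 of 10 Mof+/+ peaks. At 0.001 it kept 4, the lambda locus kept 8 of 15, and the Mof+/- peak was lost (0 of 1). The heavy chain locus kept 3 at both. Within 10 kb of the segments, 5 kappa and 5 lambda peaks were left. Merging peaks at most 1000 bp apart gave 1 heavy chain and 9 lambda peaks. With an overlap of at least 50% of both peaks, 0 Mof+/+ members overlapped a Mof+/- peak, since these differ in width. Within 500 and 1000 bp of the summit, the RGCY density of the Ighm peak was 158 and 119 per kb in place of 30.3, and that of the kappa peak 22.0 within 500 bp in place of 15.1. As recurring 12-mers in place of soft-masked sequence, repeat content was 57.4% in place of 14.1% at Ighm and 0.603% in place of 7.58% at the kappa locus. The lists give no library depth, which limits what the 1 Mof+/- peak shows.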

Other observations

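Farther along the heavy chain locus, outside the windows, the Mof+/+ list held a dense group of peaks on the 3′ side of Igha, the last constant gene, in the stretch where the 3′ regulatory region of the locus, a set of enhancers, is known to lie. This group was picked after its values were seen. In the 36 kb beyond Igha (chr12:113218830-113254829), in which no gene is annotated, 17 Mof+/+ peaks covered 13.6 kb, and 0 Mof+/- peaks were listed. They began 3.05 kb from Igha and ended 34.8 kb from it. Their fold enrichments ran from 2.34 to 4.87 (median 3.76) and their widths from 294 to 2574 bp. The highest, chr12:113244312-113245336, had its summit 9.65 kb from Igha with 21 fragments.

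At the T cell receptor loci, 9 Mof+/+ peaks overlapped 21 of the 61 J and C segments of the alpha locus, with fold enrichments from 2.65 to 5.80 and a widest peak of 6863 bp. At the beta locus, 5 peaks overlapped 6 of 16, with fold enrichments from 2.98 to 4.09. At the gamma locus 0 of 4 J and 0 of 4 C segments were overlapped, and Trdc, the delta constant gene, was not overlapped either. Over all annotated genes, 20.7% were overlapped by a Mof+/+ peak, and 10.5% of those no longer than 9721 bp. Recurring 12-mers made up at most 3.37% and 0.854% of the sequence within 1000 bp of these summits.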
